A study of Mus musculus with 27 samples.

Results

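Cholesterol synthesis genes were followed in developing mouse retina through 7 members of the pathway: Hmgcs1, Idi1, Fdps, Fdft1, Sqle, Lss and Cyp51. They were chosen by name, as the rows of the deposited expression table whose symbol equals one of these 7, and all 7 were found among 38168 features, each as a single row. All 7 passed the filter on low values, at least 1 CPM (a read count scaled to the total reads of its library) in at least 3 libraries, with 31760 features in all. The table held 27 RNA-seq libraries of whole retina from wild type C57BL/6J mice at embryonic day 14 (E14, n = 3 libraries), E17 (n = 3), postnatal day 1 (P1, n = 4), P6 (n = 3), P15 (n = 4), P28 (n = 4) and P60 (n = 6), with no treatment or mutation at any age. Tissue was taken in the light phase of the daily cycle. Libraries were made from pooled retinas, except that by the paper 4 of the 6 P60 libraries came from single mice. The rest were pools of 3 mice, and it is not stated which are which. Embryos and P1 pups were of mixed sexes and the later mice were males. In any comparison of ages up to P1 with ages from P6 on, age and sex therefore cannot be told apart. This holds for P6 against P1 and for P15, P28 and P60 against E14 and E17.

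Cells make cholesterol from acetyl-CoA by a long series of enzymes. A first block, the mevalonate pathway, builds isoprenoid units, a middle block joins them into squalene, and a last block closes the sterol rings and trims lanosterol to cholesterol. The genes of the pathway are known targets of the transcription factor SREBP2, which is held back by INSIG proteins when membranes contain enough sterol. The retina is rich in membranes, and in the adult its cholesterol comes both from synthesis within the tissue and from lipoproteins. Hmgcs1 encodes the cytosolic HMG-CoA synthase at the head of the mevalonate pathway, Idi1 interconverts the isoprenoid building blocks, and Fdps joins them into farnesyl diphosphate. Fdft1 makes squalene from farnesyl diphosphate, the first step committed to sterols. Sqle adds oxygen to squalene, Lss folds the product into lanosterol, and Cyp51 takes off a methyl group of lanosterol.

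In the mm10 (GRCm38) annotation, Hmgcs1 lies on chr13:119690379-119708260 and Idi1 on chr13:8885501-8892451, both on the plus strand. Fdps lies on chr3:89093588-89101959 and Fdft1 on chr14:63145150-63179578, both on the minus strand. Sqle lies on chr15:59315077-59331192 and Lss on chr10:76531588-76557138, both on the plus strand, and Cyp51 on chr5:4081145-4104746 on the minus strand.

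RefSeq promoter sequences of build GRCm38.p6, 250 bases before to 50 bases after a transcript start, were at hand for 4 of the 7 genes and are shown because all 4 of these genes were lower in mature than in embryonic retina. Capitals mark the matches, on either strand, to 3 motifs: the sterol element TCACNCCAC that SREBP proteins bind, the CCAAT box of the factor NF-Y, written ATTGG on the other strand, and the GC box GGGCGG of Sp1, written CCGCCC on the other strand. No match overlapped another in the 4 windows. The windows are chr13:119690101-119690400 on the plus strand for Hmgcs1, chr13:8885356-8885655 on the plus strand for Idi1, chr10:76531355-76531654 on the plus strand for Lss and chr5:4104648-4104947 on the minus strand for Cyp51.
Hmgcs1: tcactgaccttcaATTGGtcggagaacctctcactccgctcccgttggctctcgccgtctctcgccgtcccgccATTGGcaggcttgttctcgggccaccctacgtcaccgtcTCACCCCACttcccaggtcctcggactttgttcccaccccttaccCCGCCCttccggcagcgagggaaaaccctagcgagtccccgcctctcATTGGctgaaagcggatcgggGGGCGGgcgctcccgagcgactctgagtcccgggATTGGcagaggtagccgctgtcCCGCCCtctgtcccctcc
Idi1: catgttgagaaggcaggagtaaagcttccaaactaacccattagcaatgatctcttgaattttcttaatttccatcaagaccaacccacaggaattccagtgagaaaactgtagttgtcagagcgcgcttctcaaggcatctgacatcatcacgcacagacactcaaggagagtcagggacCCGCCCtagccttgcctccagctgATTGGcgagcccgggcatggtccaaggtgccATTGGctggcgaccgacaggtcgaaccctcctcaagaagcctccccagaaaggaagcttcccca
Lss: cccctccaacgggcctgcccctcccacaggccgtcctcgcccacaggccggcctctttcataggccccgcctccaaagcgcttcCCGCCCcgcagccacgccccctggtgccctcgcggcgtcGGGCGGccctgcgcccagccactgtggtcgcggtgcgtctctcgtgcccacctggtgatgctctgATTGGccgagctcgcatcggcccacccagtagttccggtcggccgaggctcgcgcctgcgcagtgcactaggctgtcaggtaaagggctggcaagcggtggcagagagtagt
Cyp51: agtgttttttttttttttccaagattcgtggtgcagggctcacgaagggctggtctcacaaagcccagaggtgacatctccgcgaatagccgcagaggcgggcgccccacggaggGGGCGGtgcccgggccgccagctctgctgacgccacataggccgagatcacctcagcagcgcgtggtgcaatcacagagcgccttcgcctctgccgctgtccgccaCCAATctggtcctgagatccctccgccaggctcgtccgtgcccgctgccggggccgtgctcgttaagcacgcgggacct

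The sterol element was matched once, in Hmgcs1, and in none of the other 3 windows. Of 32851 RefSeq promoters of the same length, 1.24% held it. CCAAT was matched 4 times in Hmgcs1, 2 times in Idi1 and once each in Lss and Cyp51, against 37.4% of all promoters with at least 1 match. GGGCGG was matched 3 times in Hmgcs1, 2 times in Lss and once each in Idi1 and Cyp51, against 35.7% of all promoters. These are descriptions of the letters in the windows and not of bound sites.

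The libraries held between 7077781 and 11332323 assigned reads (median 7969873). The values of Fdps, the gene with the fewest reads of the 7, rested on 71 to 321 reads a library and those of Hmgcs1 on 435 to 5170 reads. The tissue label was checked against marker lists. The summed level of 5 rod genes was 22.3 to 29.3 CPM at E14 and 23784 to 29259 CPM at P60, and that of 6 Müller glia genes was 819 to 836 CPM at E14 and 1336 to 1530 CPM at P60. The 5 markers of the retinal pigment epithelium summed to at most 47.1 CPM and the 5 markers of lens to at most 8.65 CPM in any library, with Mlana and Crygs below 1 CPM in all 27. The 5 markers of oligodendrocytes and myelin, whose membranes need much cholesterol, summed to 63.4 to 70.0 CPM at E14 and 44.9 to 53.5 CPM at P60, with Mag below 1 CPM in all 27. Libraries of one age resembled each other, with a lowest pairwise correlation across genes of 0.977 at the 6 younger ages and of 0.940 at P60.

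All 7 genes had their highest mean at E14 and were much lower in the mature retina. With the 14 libraries of P15, P28 and P60 set against the 6 of E14 and E17, the 7 fell by between 1.92-fold (Lss) and 5.94-fold (Hmgcs1) on the log2(CPM + 1) scale. For each gene, every mature library lay below every embryonic library. Of all 31760 features tested, 40.4% were called lower and 35.0% higher in the same comparison, and 23.0% had every mature library below every embryonic one, so a call in this direction was common in the table. The median difference over all features was -0.07 on the log2 scale, against -1.76 over the 7 genes. Calls are at an adjusted p under 0.05 from limma with Benjamini-Hochberg adjustment over all features.

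Hmgcs1 changed the most. It stood at 507, 537 and 544 CPM in the E14 libraries, at 365, 365 and 378 CPM at E17, and at 271, 212, 207 and 256 CPM at P1. At P6 it was at 81.5, 76.5 and 80.8 CPM, at P15 at 77.8, 72.2, 75.7 and 61.7 CPM and at P28 at 95.0, 89.5, 75.0 and 76.6 CPM. The 6 libraries of P60 ran from 59.8 to 72.0 CPM with a median of 68.2. The levels of E14, E17, P1 and P6 therefore made 4 separate groups, while from P6 onward neighboring ages overlapped, apart from P28 and P60. The mature retina was 2.57 below the embryonic retina on the log2 scale (SE 0.06, limma adjusted p = 1.4e-26).

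Idi1, the isomerase, lost most of its level in a single step between P1 and P6. Its levels were 171, 191 and 180 CPM at E14, 130, 128 and 129 CPM at E17 and 122, 101, 105 and 126 CPM at P1. The P6 libraries then held 26.7, 25.4 and 26.6 CPM and those of P15 29.4, 25.7, 31.4 and 33.7 CPM. Every P6 library lay far below the lowest P1 library. At P28 the levels were 43.2, 45.4, 40.2 and 40.5 CPM, above every P6 and P15 library, and at P60 they ran from 30.0 to 48.9 CPM with a median of 34.9. Mature retina lay 2.05 below embryonic retina on the log2 scale (SE 0.08, limma adjusted p = 3.0e-21).

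Sqle, the squalene epoxidase, followed a course close to that of Idi1. It measured 126, 125 and 126 CPM at E14, 90.5, 100 and 94.4 CPM at E17 and 96.4, 76.0, 75.0 and 90.3 CPM at P1, where E17 and P1 overlapped. At P6 it measured 25.4, 26.6 and 23.6 CPM and at P15 28.2, 27.3, 26.9 and 21.6 CPM. The P28 values of 34.6, 35.0, 29.2 and 30.7 CPM lay above all those of P15, and P60 ran from 23.9 to 32.5 CPM with a median of 27.5. The difference between mature and embryonic retina was -1.90 on the log2 scale (SE 0.07, limma adjusted p = 1.6e-21).

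Cyp51, which demethylates lanosterol, was the only one of the 7 to be called lower between P6 and P15. Its levels were 140, 144 and 154 CPM at E14, 115, 121 and 119 CPM at E17 and 104, 94.5, 87.9 and 96.8 CPM at P1, 3 groups without overlap. It then held 48.3, 44.6 and 44.3 CPM at P6, 35.5, 34.5, 35.8 and 31.9 CPM at P15 and 44.6, 46.9, 40.5 and 44.0 CPM at P28. P60 ran from 33.5 to 43.1 CPM with a median of 36.1, which spans the gap between P15 and P28. Mature retina lay 1.76 below embryonic retina on the log2 scale (SE 0.06, limma adjusted p = 9.6e-23). Cyp51 shares 166 of its 4415 annotated exon bases (3.76%) with Akap9, a gene on the other strand. The mean of Akap9 was 515 CPM at E14, 681 CPM at E17, 564 CPM at P6 and 422 CPM at P15. Its part in the values of Cyp51 was not tested.

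Fdft1, the squalene synthase, had its lowest point at P6 and rose again afterwards. The libraries held 96.8, 93.8 and 90.3 CPM at E14, 78.4, 73.2 and 75.6 CPM at E17, and 64.3, 55.3, 54.2 and 57.0 CPM at P1. At P6 they held 22.9, 23.4 and 22.1 CPM. All later libraries were above these, with 30.8, 37.4, 37.5 and 39.5 CPM at P15, 35.2, 46.5, 41.9 and 44.8 CPM at P28 and 35.2 to 54.4 CPM (median 46.4) at P60. Mature retina was 1.04 below embryonic retina on the log2 scale (SE 0.08, limma adjusted p = 1.5e-13). In the GENCODE annotation of GRCm38, Fdft1 shares 774 of its 4227 exon bases (18.3%) with Ctsb, a lysosomal protease gene on the other strand. It is not stated whether reads were counted by strand. The mean of Ctsb was 47.3 CPM at P1, 80.0 CPM at P6 and 121 to 145 CPM from P15 to P60, and its part in the values of Fdft1 was not tested.

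Lss, the lanosterol synthase, had the smallest difference of the 7 and the smallest standard error. It held 107, 102 and 103 CPM at E14, 81.3, 76.8 and 81.0 CPM at E17 and 72.5, 69.6, 68.0 and 74.4 CPM at P1, with no overlap between these ages. At P6 it held 39.0, 45.2 and 37.4 CPM, and at P15 45.0, 47.5, 44.1 and 42.2 CPM. The P28 libraries held 49.7, 50.3, 48.0 and 46.6 CPM, and those of P60 ran from 42.8 to 52.2 CPM with a median of 47.2. The ages from P6 on overlapped, except that P28 lay above P6. Mature retina was 0.94 below embryonic retina on the log2 scale (SE 0.05, limma adjusted p = 1.0e-16).

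Fdps, the farnesyl diphosphate synthase, rested on the fewest reads and had the widest relative spread. It measured 30.3, 26.8 and 33.8 CPM at E14, 24.3, 25.1 and 27.4 CPM at E17 and 28.3, 20.6, 21.2 and 17.2 CPM at P1, so these 3 ages overlapped. The P6 levels were 14.1, 14.0 and 12.1 CPM, those of P15 9.50, 11.6, 11.9 and 14.8 CPM, and those of P28 12.7, 12.6, 11.2 and 12.6 CPM. At P60 it ran from 9.56 to 22.6 CPM with a median of 15.3, a range that took in all levels of P6 and P28 and part of those of P1. Mature retina was 1.04 below embryonic retina on the log2 scale (SE 0.12, limma adjusted p = 3.8e-09). The table also has a row named Rusc1/Fdps, at 0.838 to 1.17 times the level of Fdps in each library (median 0.966). The annotation holds a transcript on the same strand, Gm43738 (chr3:89081939-89101099), that shares 1124 of the 4208 exon bases of Fdps (26.7%) and runs into Rusc1. With that row added to Fdps the difference was -0.97 (limma adjusted p = 3.5e-09), an alternative chosen after seeing the data. The row followed Fdps closely (Pearson r = 0.981 of log2(CPM + 1) over the 27 libraries), so this sum could hardly differ from Fdps alone. Whether both rows hold the same reads was not tested.

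**Figure D1:**
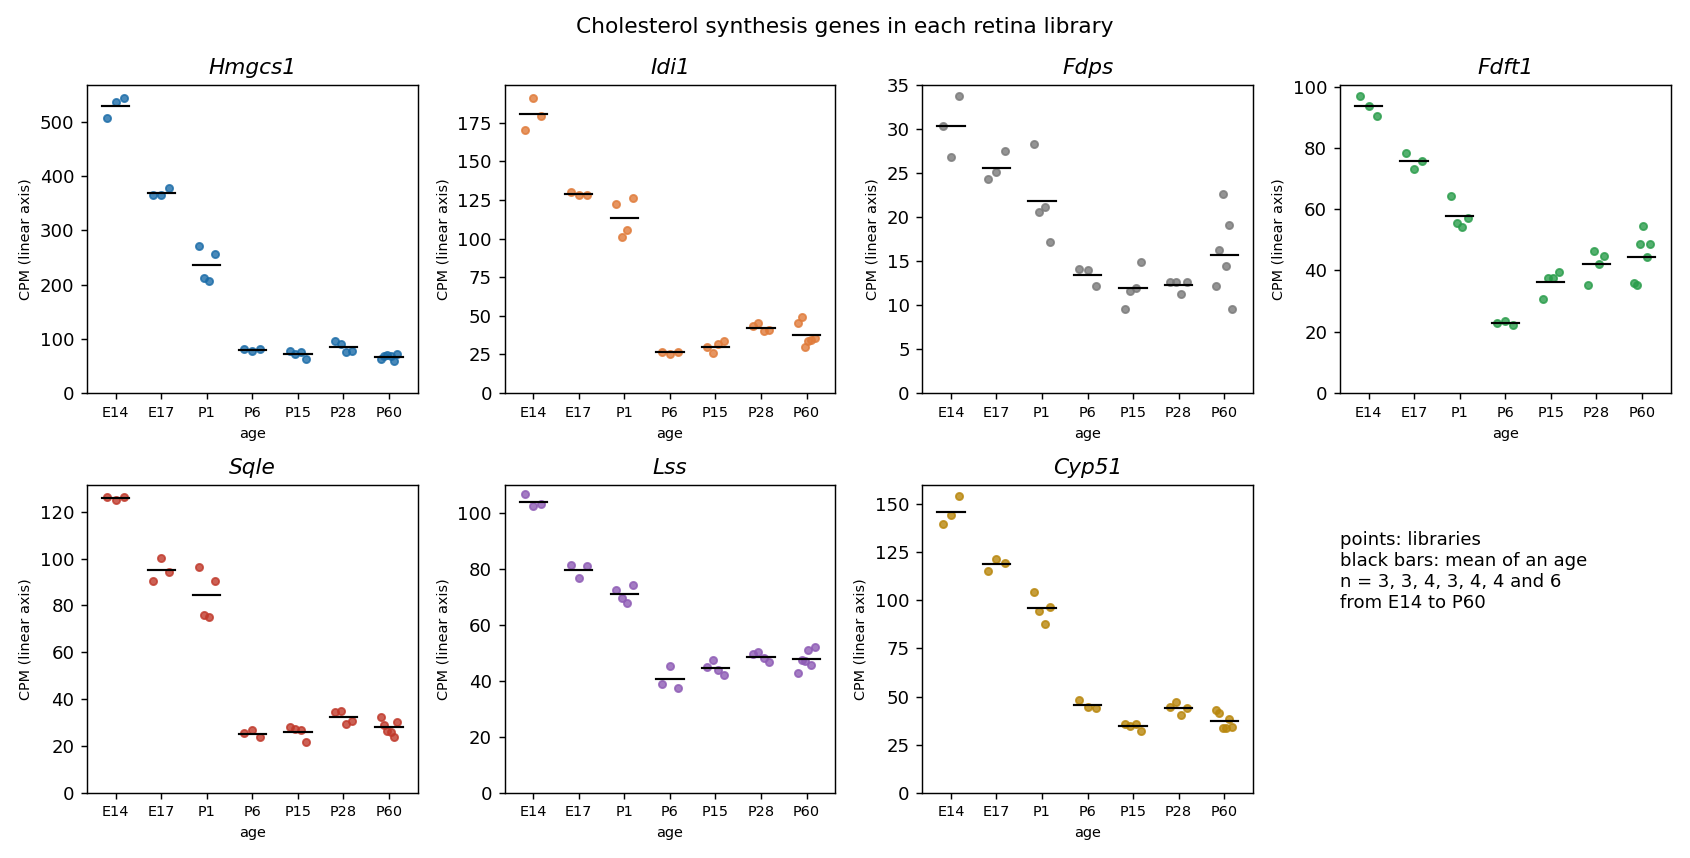
CPM of each of the 7 genes (vertical axis, linear, from 0, a scale of its own in each panel) in every library (points) by age (horizontal axis), with black bars at the mean of an age (n = 3, 3, 4, 3, 4, 4 and 6 libraries from E14 to P60). In every panel the libraries of E14 and E17 lie above those of P6 to P60, and every P6 library lies below every P1 library.

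Set against its own level at E14, each gene kept a different share. The P6 mean was 14.5% of the E14 mean for Idi1, 15% for Hmgcs1, 20% for Sqle, 24.3% for Fdft1, 31.3% for Cyp51, 38.9% for Lss and 44.2% for Fdps. At P60 it was 12.6% for Hmgcs1, 21% for Idi1, 22.2% for Sqle, 25.5% for Cyp51, 45.8% for Lss, 47.5% for Fdft1 and 51.8% for Fdps. By P60, then, Lss, Fdft1 and Fdps had kept far more of their early level than the other 4. Levels in CPM were not compared between genes, since CPM does not correct for transcript length.

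**Figure D2:**
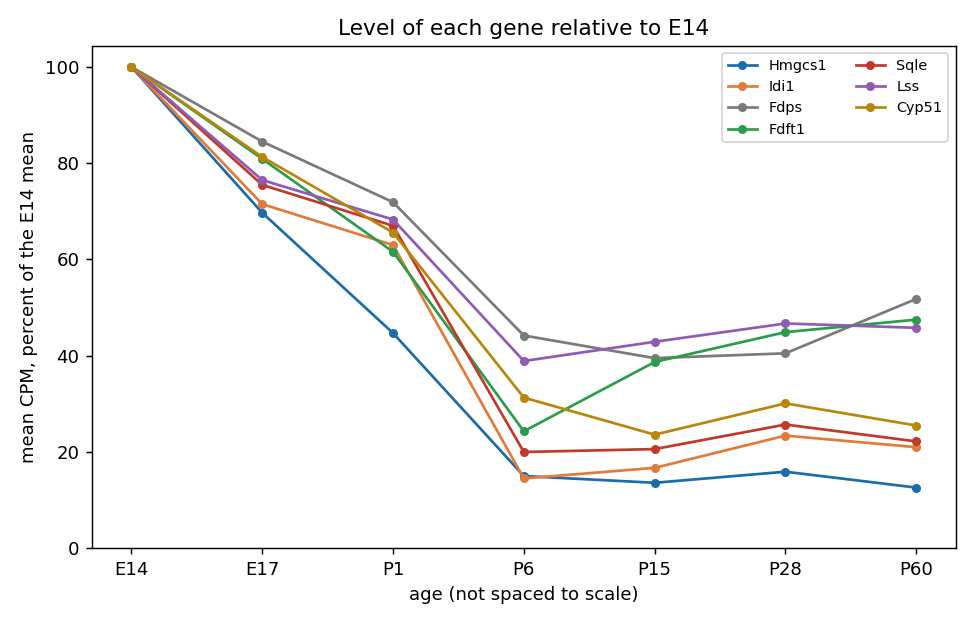
Mean CPM of each gene as a percent of its E14 mean (vertical axis, linear, from 0) at the 7 ages (horizontal axis, ages not spaced to scale), 1 line for each gene. Hmgcs1 ends lowest, at 12.6%, and Fdps, Fdft1 and Lss end highest, between 45.8% and 51.8%.

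Whether the genes differed in the size of their fall was asked within libraries. For each of the 21 pairs, the difference of log2(CPM + 1) between the 2 genes was taken in each of the 20 embryonic and mature libraries and compared between the 6 embryonic and 14 mature libraries by a two-sided exact permutation test over 38760 arrangements, with p-values adjusted over the 21 pairs. In 17 pairs the fall differed at an adjusted p under 0.05. Hmgcs1 fell further than each of the other 6 genes, by 0.55 on the log2 scale against Idi1 (permutation adjusted p = 0.00051), by 0.68 against Sqle, and by 1.65 against Lss. Apart from the pair with Idi1, each pair of Hmgcs1 reached a permutation p = 2.6e-05, the smallest the permutations can give, with an adjusted value of 4.5e-05. No pair of Hmgcs1 had overlap between the groups.

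Idi1, Sqle and Cyp51 each fell further than Fdps, Fdft1 and Lss. The 9 differences lay between 0.74 (Cyp51 against Fdft1) and 1.10 (Idi1 against Lss), with no overlap of embryonic and mature libraries in any of the 9. Idi1 and Sqle both fell further than Cyp51, by 0.28 (permutation adjusted p = 0.0016) and 0.15 (permutation adjusted p = 0.016), with overlap between the groups. For 4 pairs a difference was not detected. These were Idi1 and Sqle (0.13, permutation adjusted p = 0.19), Fdft1 and Lss (0.08, permutation adjusted p = 0.36), Fdps and Lss (0.07, permutation adjusted p = 0.67) and Fdps and Fdft1 (0.01, permutation adjusted p = 0.94). The spread of Fdps limits the last 2.

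On the log2 scale the fall came mainly between P1 and P6. All 7 genes fell in that step, all with every P6 library below every P1 library, where 20.4% of all features were called lower, 18.0% higher, and 25.4% had P6 wholly below P1. The folds on the log2(CPM + 1) scale were 4.19 for Idi1, 3.24 for Sqle, 2.93 for Hmgcs1, 2.46 for Fdft1, 2.07 for Cyp51, 1.74 for Lss and 1.56 for Fdps, with limma adjusted p from 2.7e-15 (Idi1) to 0.0066 (Fdps). For each gene this was the largest of the 6 steps between neighboring ages, though the difference between steps was not tested. The median over all features was -0.03 in this step and -1.30 over the 7 genes.

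Cell type markers moved in the same interval. The summed level of 5 markers of proliferating progenitors (Mki67, Top2a, Ccnb1, Cdk1 and Fgf15) was 2799 to 3186 CPM at P1 and 68.5 to 94.0 CPM at P6, and under 7 CPM at every later age. The 5 rod genes went from 112 to 119 CPM to 2659 to 3426 CPM. The 6 Müller glia genes summed to 876 to 919 CPM at P1, 545 to 579 CPM at P6 and at least 1230 CPM later, but they did not move one way between P1 and P6. Dkk3 (means of 503 and 179 CPM), Glul (152 and 76.1 CPM) and Kcnj10 (21 and 15.5 CPM) were called lower, Rlbp1 (20.6 and 92.9 CPM) and Aqp4 (0.736 and 4.42 CPM) were called higher, and Slc1a3 was at 195 and 196 CPM. The 3 endothelial genes summed to 416 to 488 CPM at P1 and 247 to 258 CPM at P6, nearly all of it Kdr (457 and 238 CPM), while Pecam1 was called higher (1.55 and 7.98 CPM) and Cldn5 was at 4.30 and 5.75 CPM. The part of these shifts in the fall of the 7 genes was not tested, and in bulk tissue fewer cells of a type and less RNA per cell cannot be told apart.

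The earlier steps were smaller. From E14 to E17, 5 of the 7 genes were called lower against 3.02% of all features: Hmgcs1 by 0.52 on the log2 scale (limma adjusted p = 0.00049), Idi1 by 0.48 (limma adjusted p = 0.011), Sqle by 0.40 (limma adjusted p = 0.020), Lss by 0.38 (limma adjusted p = 0.0027) and Cyp51 by 0.30 (limma adjusted p = 0.047). Fdft1 and Fdps had differences of -0.30 (limma adjusted p = 0.16) and -0.23 (limma adjusted p = 0.62). In a fit of E14 and E17 alone Fdft1 was called (limma adjusted p = 0.00024), and with no filter on low values the call of Cyp51 was lost (limma adjusted p = 0.053). From E17 to P1, 3 of the 7 were called lower against 3.43% of all features. They were Hmgcs1 by 0.65 (limma adjusted p = 1.2e-05), Fdft1 by 0.39 (limma adjusted p = 0.036) and Cyp51 by 0.31 (limma adjusted p = 0.027), and the other 4 differences lay between -0.24 and -0.16. With any 1 library of the ages compared left out, 2 to 4 genes were called in the first of these steps and 1 to 3 in the second.

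After P6 the steps were smaller than from P1 to P6, few of the 7 genes were called in any of them, and the calls went in both directions. From P6 to P15 Fdft1 rose 1.56-fold (log2 0.64, SE 0.12, limma adjusted p = 8.4e-05) and Cyp51 fell 1.32-fold (log2 -0.40, SE 0.09, limma adjusted p = 0.00086), where 14.4% of all features were called higher and 19.0% lower. The other 5 differences lay between -0.16 and 0.18. From P15 to P28 Idi1 rose 1.40-fold (log2 0.48, limma adjusted p = 0.011) and Cyp51 1.27-fold (log2 0.34, limma adjusted p = 0.019), against 1.14% of all features called higher, and all 7 differences were above 0. Without 1 library, the call of Cyp51 was lost in 4 of 8 cases (P15 replicate 4 and P28 replicates 1, 2 and 4) and that of Idi1 in 1 (P15 replicate 2). From P28 to P60 Hmgcs1 fell 1.25-fold (log2 -0.32, limma adjusted p = 0.013) and Cyp51 1.18-fold (log2 -0.24, limma adjusted p = 0.040), against 8.11% of all features called lower. Both calls of this last step were lost with median-of-ratios scaling, in a fit of P28 and P60 alone and with the replicate number as a block.

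**Figure D3:**
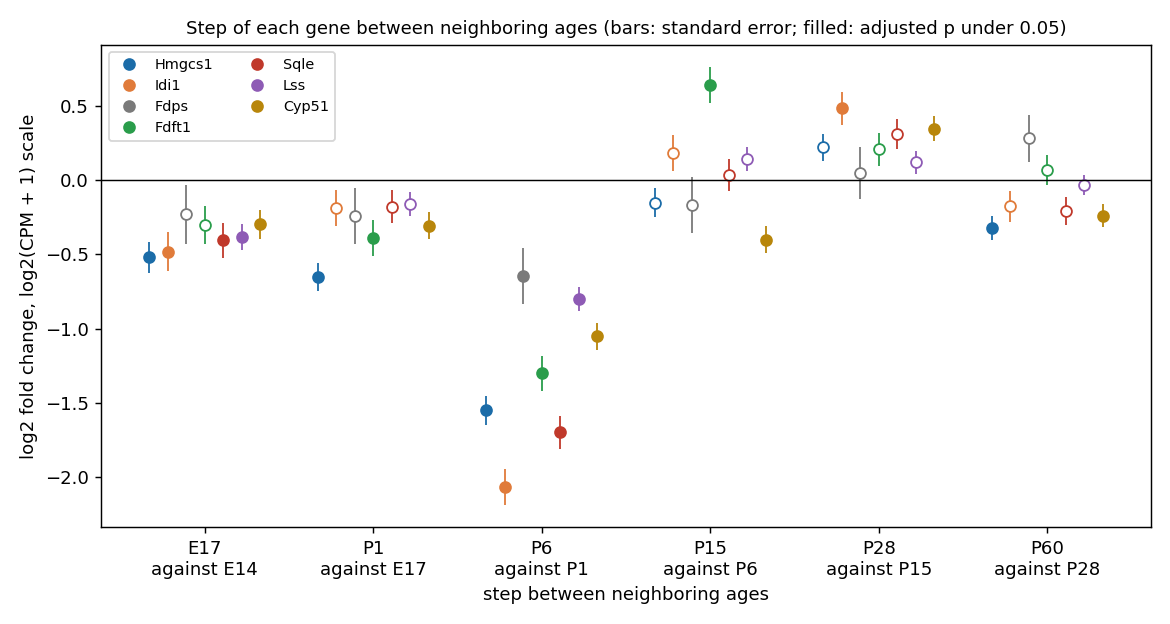
Difference of each gene between neighboring ages on the log2(CPM + 1) scale (vertical axis), with bars of 1 standard error and filled points at a limma adjusted p under 0.05, for the 6 steps (horizontal axis). All 7 points are filled and lie between -2.07 and -0.64 in the step from P1 to P6, and Fdft1 is the highest point of the step from P6 to P15, at 0.64.

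The mature ages together were also set against P6, a comparison added after seeing the data that shares the P6 libraries with the steps above. Fdft1 was 1.75-fold higher (log2 0.80, SE 0.10, limma adjusted p = 8.1e-08), with every mature library above every P6 library. Idi1 was 1.36-fold higher (log2 0.45, limma adjusted p = 0.00052) and Lss 1.16-fold higher (log2 0.21, limma adjusted p = 0.013), both with overlap. Cyp51 was 1.19-fold lower (log2 -0.25, limma adjusted p = 0.0082). Of all features 17.9% were called higher and 26.6% lower. Hmgcs1, Sqle and Fdps had differences of -0.11, 0.17 and -0.04 that did not pass the test. The calls of Lss and Cyp51 were lost without P6 replicate 1 (limma adjusted p = 0.075 and 0.071). Median-of-ratios scaling and edgeR also ended the call of Cyp51 (adjusted p = 0.12 with limma and 0.10 with edgeR) and called Sqle higher (adjusted p = 0.015 with limma and 0.023 with edgeR). Over the 7 ages as a whole, all 7 genes varied in limma's F test, with adjusted p from 6.2e-25 (Hmgcs1) to 1.8e-07 (Fdps), as did 83.0% of all features.

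Libraries of one age also differed from each other across the 7 genes. P1 replicate 1 lay above the mean of its age for all 7 genes, by 0.17 on the log2 scale on average, while P1 replicates 2 and 3 lay below it for all 7, by 0.09 and 0.11 on average. P28 replicate 2 lay above its age mean for all 7 genes, by 0.09 on average. At P60 the genes did not shift together: replicate 2 held the highest Idi1 (48.9 CPM) with the lowest Fdft1 (35.2 CPM), and replicate 4 held the highest Fdft1 (54.4 CPM) with the second lowest Idi1 (33.4 CPM). Without P1 replicate 1, as without any other library of P1 or P6, all 7 genes stayed called between P1 and P6.

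Over the 27 libraries, the gene most like Hmgcs1 was Cyp51 (Pearson r = 0.984 of log2(CPM + 1)), and that most like Idi1 was Sqle (r = 0.983). Fdft1 was most like Lss (r = 0.918) and Fdps most like Cyp51 (r = 0.843). Those values are dominated by the ages, which the libraries share. With the mean of each age taken off, r over the same 27 libraries ran from -0.528 (Fdft1 and Cyp51) to 0.698 (Hmgcs1 and Sqle) with a median of 0.028 over the 21 pairs. Hmgcs1 with Sqle, Idi1 with Cyp51 (0.646) and Sqle with Cyp51 (0.614) were the 3 highest. The values of Fdft1 with Cyp51 and of Idi1 with Cyp51 came mainly from the P60 libraries. In P60 replicates 1 and 2 the deviations were -0.28 and -0.31 for Fdft1, 0.21 and 0.15 for Cyp51, and 0.26 and 0.38 for Idi1. In P60 replicates 3 and 4 each of these genes deviated the other way. These correlations are descriptions, and the points share their library and its depth.

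**Figure D4:**
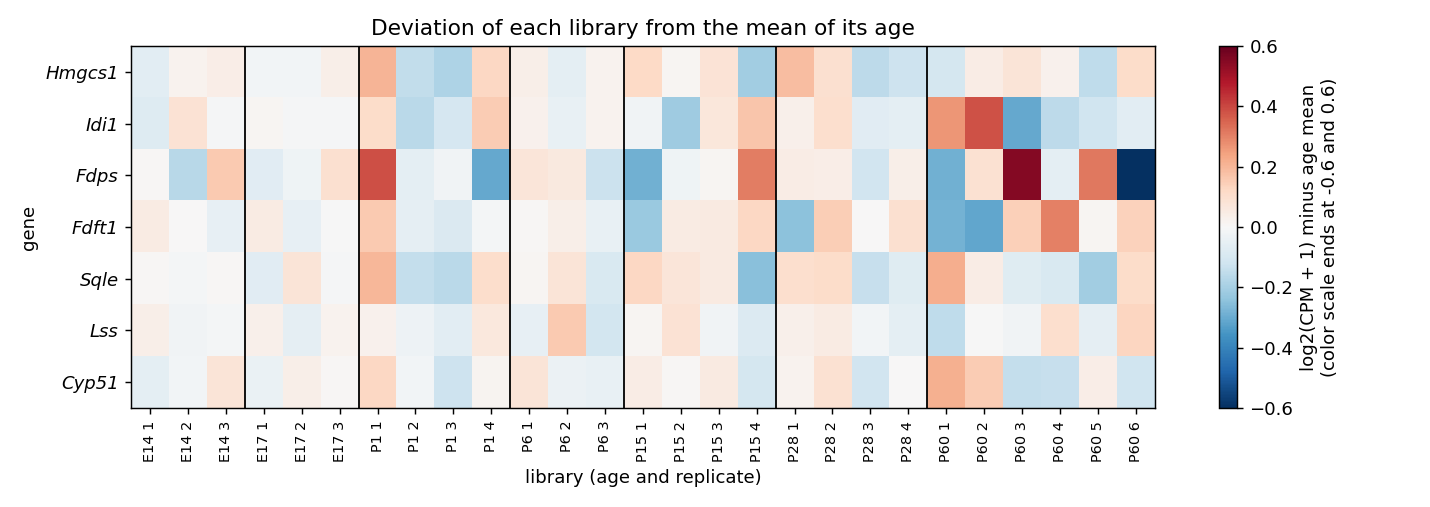
Deviation of each library (horizontal axis, by age and replicate) from the mean of its age on the log2(CPM + 1) scale, for the 7 genes (rows), with a color scale that ends at -0.6 and 0.6. P1 replicate 1 is above its age mean in all 7 rows and P1 replicates 2 and 3 are below it in all 7, while the rows of Idi1 and Fdft1 differ in color over the P60 libraries.

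Most of the other enzymes of the pathway were lower in mature retina as well. Of 4 other enzymes before squalene, 3 were called lower in mature than in embryonic retina and none higher (median -0.74 on the log2 scale, against -0.07 over all features, of which 40.4% were called lower and 35.0% higher). Acat2, a thiolase at the start of the pathway, was 2.28 lower (limma adjusted p = 1.5e-17). The kinase Mvk and the decarboxylase Mvd were 0.70 and 0.79 lower, and Pmvk had a difference of 0.15 (limma adjusted p = 0.24). Of 8 other enzymes after squalene, 5 were called lower and none higher (median -1.07). Lbr, a sterol reductase that is also a protein of the nuclear envelope, was 2.10 lower and Msmo1, a methyl oxidase, 1.14 lower. Tm7sf2, a reductase with the same reaction as Lbr, and Ebp and Sc5d had differences of -0.01, -0.18 and -0.13 with limma adjusted p of 0.91, 0.11 and 0.15.

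**Figure D5:**
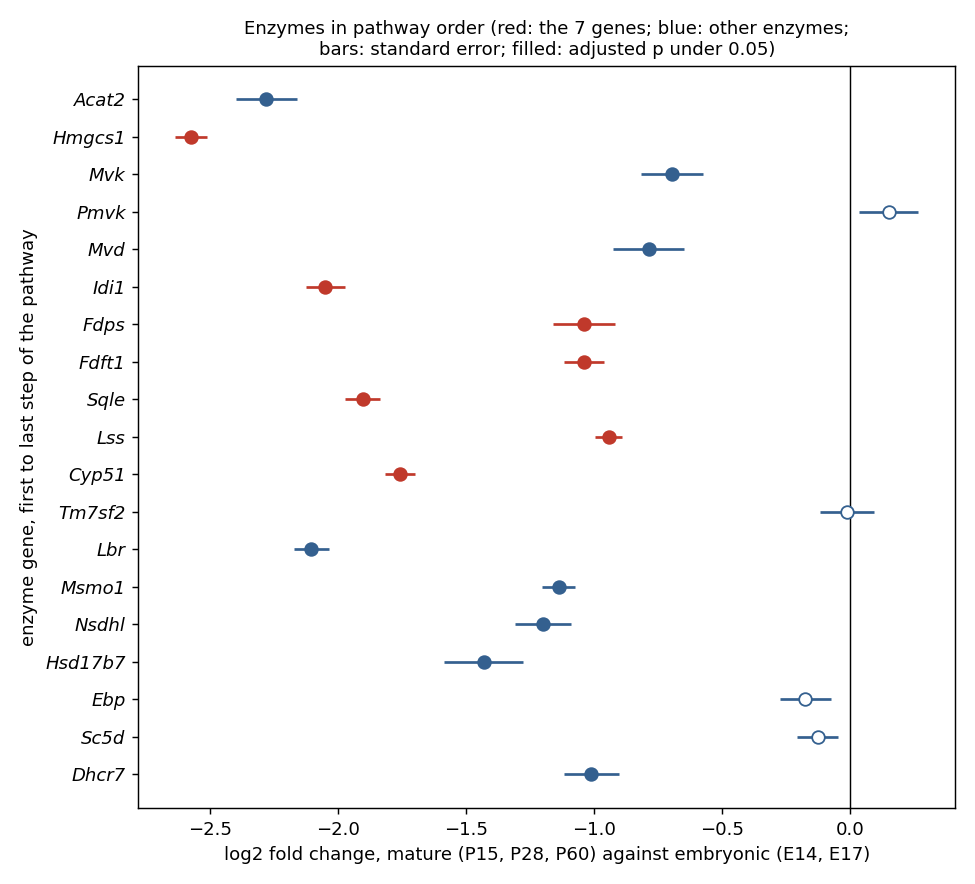
Difference between mature (P15, P28, P60) and embryonic (E14, E17) retina on the log2(CPM + 1) scale (horizontal axis) for enzyme genes in the order of the pathway (vertical axis), red for the 7 genes and blue for the others, with bars of 1 standard error and filled points at a limma adjusted p under 0.05. The filled points lie between -2.57 (Hmgcs1) and -0.70 (Mvk), and the 4 open points (Pmvk, Tm7sf2, Ebp and Sc5d) lie between -0.18 and 0.15.

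Between P1 and P6, 1 of the 4 other enzymes before squalene and 5 of the 8 after it were called lower, and none higher, against 20.4% of all features called lower and 18.0% higher, so the count before squalene is near that share. Lbr was 1.84 lower on the log2 scale, Acat2 1.25 and Msmo1 1.23. With the mature ages set against P6, 1 of the 4 and 3 of the 8 were higher, among them Msmo1 (0.70), Tm7sf2 (0.55) and Sc5d (0.51), and 2 of the 4 and 1 of the 8 were lower, among them Acat2 (-0.66) and Lbr (-0.36), against 17.9% of all features called higher and 26.6% lower.

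Of 7 regulators of the pathway, 3 were called lower and 2 higher in mature than in embryonic retina (median -0.10), counts near the 40.4% and 35.0% of all features. Srebf2, which encodes SREBP2, was 1.34 lower on the log2 scale, with 236 to 255 CPM at E14, 169 to 211 CPM at P1, 62.7 to 70.6 CPM at P6 and 79.7 to 128 CPM at P60. Insig1, which holds SREBP in the endoplasmic reticulum and is itself a sterol-regulated gene, was 0.81 lower, and the protease gene Mbtps2 0.96 lower. Scap, the escort of SREBP, and Insig2 were 0.94 and 0.83 higher. Srebf1 and Mbtps1 had differences of 0.07 and -0.10 that did not pass the test. Between P1 and P6, Srebf2 fell by 1.5 and Insig1 by 1.96 on the log2 scale.

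Of 9 genes of uptake and transport, 3 were called lower and 5 higher (median 0.56), against the same 40.4% and 35.0% of all features. The 3 lower genes were Stard4, a sterol carrier (-1.53), Npc2 (-0.975) and Lrp1 (-0.35, limma adjusted p = 0.00052). Lipoprotein receptors thus went both ways, since Lrp1 is such a receptor, while the receptors Scarb1 and Vldlr were 2.16 and 1.54 higher. Mylip, a ubiquitin ligase of lipoprotein uptake, was 1.74 higher. Of 10 genes of efflux, storage and oxysterols 9 were tested, 2 were lower and 5 higher (median 0.64), against 40.4% and 35.0% of all features. The 2 lower genes were Soat1 (-0.30) and Cyp46a1 (-0.80). Abca1, a cholesterol exporter, was 3.34 higher in mature than in embryonic retina, the apolipoprotein Apoe 2.74 higher and the exporter Abcg1 2.02 higher. Abca1 was highest at P6, with 137 to 152 CPM against 19.1 to 29.2 CPM at P1 and 45.6 to 61.5 CPM at P60.

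Genes outside the pathway with age courses like the mean course of the 7 were sought among 5693 features with a Gene ID, a mean of at least 10 CPM and a range of age means of at least 1 on the log2 scale. Those with the highest Pearson r over the 7 age means included Cdv3 (r = 0.999), Nup50, Ing5, Ska2, Rassf4, Tle4, Aldh1a1, Mcm8 and a row printed as 11-Sep, a date in place of a symbol, with r = 0.990 for the last. Cdv3 averaged 89.5 CPM at E14, 30.6 CPM at P6 and 35.5 CPM at P60. Nup50, a nuclear pore gene, averaged 146, 47.0 and 57.9 CPM at these ages, and Aldh1a1, a retinaldehyde dehydrogenase, 86.5, 16.7 and 23.5 CPM. Among the other pathway genes Nsdhl, a sterol dehydrogenase, ranked highest (rank 12, r = 0.990), followed by Srebf2 (rank 77, r = 0.978). With 7 points and falling courses this frequent in the table, the ranking is a description only.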

How the data were processed

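Total RNA of whole retina was sequenced as single-end reads, aligned by the authors to mm10 with STAR, and deposited as CPM for 38168 features, 14905 of them without a Gene ID. The gene annotation and the use of strand in counting are not given in the sources used here. The CPM values were whole multiples of 1 read in 100.0% of cases (tolerance 0.02 reads), which gave the reads per library (7077781 to 11332323). Libraries of one age are separate samples by their labels, and p-values measure the spread between them, which may be technical in part.

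Ages were compared with limma 3.58.1 (R 4.3.3, mean-variance trend) on log2(CPM + 1) in 1 fit of all 27 libraries, for the features that reached 1 CPM in 3 or more libraries, with Benjamini-Hochberg adjustment. Fold changes on this scale understate changes of low genes. Alternatives were a pseudocount of 0.1, other filters, median-of-ratios scaling, a replicate term, fits of the compared ages alone, left-out libraries, summed rows of a symbol, and edgeR 4.0.16 (quasi-likelihood test) on the recovered reads, which called 24062 features between mature and embryonic retina against 23951 for limma. The script was tested on simulated data.

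The 7 genes and the lists of pathway and marker genes were chosen with earlier results of these data known. Genes named beyond the 7 come from those lists or are among the 10 features most like the mean course. Some genes of those lists and of these 10 are not reported here, and counts of a list leave them out. Ch25h was not among the rows of the table, and Idi2 failed the filter. Genes overlapping a member on the other strand were Gm48342 (Hmgcs1), Gm48574 (Idi1), 4930483K19Rik (Lss), Ctsb (Fdft1) and Akap9 (Cyp51).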

Additional observations from a re-analysis of the deposited data

Results flagged for a closer look

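Each of the 7 genes was searched for an outlying library at the 4 ages with 4 to 10 libraries, 28 groups in all, by Dixon's criterion, which flags about 1 in 20 groups by chance. A single group stood out. P28 replicate 3 held 11.23 CPM of Fdps while the other 3 libraries of P28 held 12.6 to 12.7 CPM, a gap that is wide only because those 3 lie so close together. The call of Fdps as lower in mature than in embryonic retina was the same without that library.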

How the results depend on the processing

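The fall of all 7 genes between embryonic and mature retina, and between P1 and P6, was called under every alternative run, with 7 genes each without any 1 library, as was the F test over the ages in each limma fit of all 7 ages. The 2 calls from P6 to P15 were also kept without any 1 library. No called difference changed sign. The numbers of genes called in the small steps were less stable. Without 1 library they ran from 2 to 4 from E14 to E17 (main 5), from 1 to 3 from E17 to P1 (main 3), from 1 to 2 from P15 to P28 (main 2), from 0 to 3 from P28 to P60 (main 2), and from 2 to 4 for P15 to P60 against P6 (main 4). From E14 to E17, 2 were called without E14 replicate 2 and 3 without E14 replicate 1 or 3 or E17 replicate 1 or 3, with Sqle and Cyp51 lost in each of the 5, and Cyp51 alone was lost without E17 replicate 2. From E17 to P1, 1 was called without any of E17 replicates 1 to 3 or P1 replicate 2 or 3, with Fdft1 and Cyp51 lost, and Fdft1 alone was lost without P1 replicate 4. From P15 to P28, 1 was called without P15 replicate 2 (Idi1 lost) or without P15 replicate 4 or P28 replicate 1, 2 or 4 (Cyp51 lost). From P28 to P60, 0 were called without P28 replicate 1 or 2, and 1 (Cyp51 lost) without P28 replicate 4 or P60 replicate 3, 4, 5 or 6. Against P6, 2 were called without P6 replicate 1, and Lss was also lost without P6 replicate 3.

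From E14 to E17, Fdft1 was gained with only the ages compared and Cyp51 lost with no filter. From P28 to P60, 0 genes were called with median-of-ratios scaling, 0 with only the ages compared, and 1 with edgeR, with or without E14 replicate 1. In that step limma called 2576 of its 4100 features lower and edgeR 1363 of 3481, and the cause was not tested. Against P6, median-of-ratios scaling and edgeR lost Cyp51 (-0.15 and -0.16 on the log2 scale) and called Sqle (0.28 in both). Same-numbered libraries of different ages did not deviate together (median r -0.002, 3 of 27 libraries best with their own number), so no pairing by number was seen over the ages as a whole. Pairing between only some of the ages was not tested. With the replicate block 0 genes were called from P28 to P60 (Hmgcs1 limma adjusted p = 0.052), and it changed no other call of the 7 genes. Of 567 single-gene values under the other alternatives, 551 kept their side of the threshold, 12 lost a call and 4 gained one.

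Depth limits Fdps most, with 71 to 321 reads a library.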

Other observations

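Other branches use the same isoprenoid units as sterol synthesis. Of 6 genes of these branches 5 were tested, and between embryonic and mature retina 2 were higher and 1 lower (median 0.03 on the log2 scale), where 35.0% of all features were called higher and 40.4% lower. Dhdds, which builds dolichol for protein glycosylation, was 0.86 higher and Coq2, an enzyme of ubiquinone synthesis, 0.53 higher. Pdss2, also of ubiquinone synthesis, was 0.33 lower, and its partner Pdss1 and Ggps1, the geranylgeranyl diphosphate synthase, had differences of 0.03 and -0.01 with limma adjusted p of 0.79 and 0.90.

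Cyp27a1, an oxysterol-forming hydroxylase, had its lowest mean at P6, 0.139 CPM, near 1 read a library, against 1.91 CPM at E14 and 5.16 CPM at P60. Cyp46a1, which makes the main oxysterol of brain, was 0.80 lower in mature than in embryonic retina on the log2 scale, with means of 10.4 CPM at E14 and 4.84 CPM at P60.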
